A study of Mus musculus with 51 samples.

Results

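The 35 genes described here encode parts of the neuronal synapse: subunits of the AMPA, NMDA and kainate classes of glutamate receptor, 2 metabotropic glutamate receptors, GABA-A receptor subunits, the vesicle release machinery, active zone scaffolds, adhesion proteins, and postsynaptic scaffolds and kinases. They were picked by name and function out of 22359 coding genes of the mm9 annotation, with earlier results of these data known, and the rule sets no threshold on a measured value. For each gene, every H3K27ac or H3K4me1 peak that overlapped the gene body or the 10 kb on either side, called its window, was counted at each stage. Mouse C57/BL-6 embryonic stem cells were turned into astrogliogenic neural precursor cells (aNPC), and these were differentiated in medium with serum and LIF into early astrocytes (eA, 1 day) and late astrocytes (lA, 5 days). Both marks were profiled by ChIP-seq in wild-type cells at these 3 stages, with 2 biological replicates that the authors merged before calling peaks. Each mark and stage therefore has 1 peak list, no spread between cultures can be given, and no difference between stages was tested. The lists used here come from cells without a knockdown, and all 3 stages were grown in culture, so none of them is brain tissue.

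Synaptic proteins let a neuron release transmitter from vesicles and let the next cell sense it, and their genes are switched on as neurons mature. Acetylation of lysine 27 on histone H3 marks promoters and enhancers in use, whereas monomethylation of lysine 4 marks enhancers that are in use or primed, the primed state being H3K4me1 without H3K27ac. In cells that are not neurons, many neuronal genes are held down by the repressor REST, which binds a long motif. Astrocytes nonetheless express some glutamate and GABA receptors, through which they sense neuronal activity, and some of the adhesion and release proteins are also found in glia.

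The lists held between 79413 and 92700 H3K27ac peaks and between 154238 and 208333 H3K4me1 peaks, with the smallest list of each mark in aNPC and the largest in lA. The sequencing depth behind them is unknown. At the promoters of cell type markers, H3K27ac was called at 5, 5 and 6 of 8 astrocyte genes in aNPC, eA and lA, at 4, 4 and 4 of 5 progenitor genes, at 3, 3 and 2 of 8 neuronal genes and at 0, 0 and 0 of 4 oligodendrocyte genes. Among the neuronal markers, Map2 and Tubb3 had a promoter H3K27ac peak at every stage and Elavl4 had one in aNPC and eA, while Rbfox3, Dcx, Nefl, Elavl3 and Stmn2 had none. A mark at a gene that neurons and glia share cannot be assigned to one of them in these bulk cultures. More cells with a mark and more of it per cell cannot be told apart either.

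Before the values, the sequence just upstream of the start sites is shown for 7 of the 9 members whose promoter carried H3K27ac at some stages but not at others. A promoter is taken here as the stretch starting 1 kb before and ending 100 bp after any coding start site. The sequences, read from the mm9 genome 5′ to 3′ on the strand of the gene, are the 200 bases before the start nearest to the peak, and capitals mark CG dinucleotides. They are shown because CpG-rich starts are the ones that commonly carry active marks across tissues.
Grin2a, chr16:9995015-9995214, minus strand: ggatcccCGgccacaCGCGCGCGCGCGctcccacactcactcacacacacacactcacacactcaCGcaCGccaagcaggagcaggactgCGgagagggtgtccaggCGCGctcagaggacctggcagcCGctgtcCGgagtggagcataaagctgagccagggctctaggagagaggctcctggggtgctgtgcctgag
Grin2b, chr6:136123530-136123729, minus strand: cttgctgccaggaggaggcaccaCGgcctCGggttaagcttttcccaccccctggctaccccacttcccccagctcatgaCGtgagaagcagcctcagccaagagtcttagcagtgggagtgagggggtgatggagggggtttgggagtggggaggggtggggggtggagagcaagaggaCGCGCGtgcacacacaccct
Grik3, chr4:125167744-125167943, plus strand: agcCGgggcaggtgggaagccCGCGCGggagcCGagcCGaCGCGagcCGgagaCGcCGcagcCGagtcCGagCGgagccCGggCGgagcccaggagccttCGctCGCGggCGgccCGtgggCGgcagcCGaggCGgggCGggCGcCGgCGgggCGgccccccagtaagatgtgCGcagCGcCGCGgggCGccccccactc
Gabra5, chr7:64765380-64765579, minus strand: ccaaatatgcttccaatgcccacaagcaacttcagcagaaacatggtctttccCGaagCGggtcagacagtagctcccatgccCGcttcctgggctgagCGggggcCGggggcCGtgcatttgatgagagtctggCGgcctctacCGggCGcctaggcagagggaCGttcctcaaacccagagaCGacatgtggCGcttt
Grik1, chr16:88289948-88290147, minus strand: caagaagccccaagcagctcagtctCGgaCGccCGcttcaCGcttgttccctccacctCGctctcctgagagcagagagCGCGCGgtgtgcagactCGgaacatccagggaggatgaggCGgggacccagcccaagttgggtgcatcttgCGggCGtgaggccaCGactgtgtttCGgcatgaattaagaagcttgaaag
Syt1, chr10:108448039-108448238, minus strand: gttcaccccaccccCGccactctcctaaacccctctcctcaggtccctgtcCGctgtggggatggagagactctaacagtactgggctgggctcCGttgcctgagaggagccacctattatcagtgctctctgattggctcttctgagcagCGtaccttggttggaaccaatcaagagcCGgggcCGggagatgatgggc
Gria2, chr3:80606714-80606913, minus strand: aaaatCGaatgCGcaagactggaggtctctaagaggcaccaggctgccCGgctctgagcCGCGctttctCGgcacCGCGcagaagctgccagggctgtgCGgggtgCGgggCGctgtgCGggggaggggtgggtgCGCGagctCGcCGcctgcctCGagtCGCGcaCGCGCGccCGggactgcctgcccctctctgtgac
For comparison, the outermost starts of 2 genes with no promoter H3K27ac peak at any stage are shown, Grin1 having the highest ratio of observed to expected CG dinucleotides of the 12 such genes and Grm5 being 1 of the 3 that had none, beside Nrxn3 and Dlg2.
Grin1, chr2:25174708-25174907, minus strand: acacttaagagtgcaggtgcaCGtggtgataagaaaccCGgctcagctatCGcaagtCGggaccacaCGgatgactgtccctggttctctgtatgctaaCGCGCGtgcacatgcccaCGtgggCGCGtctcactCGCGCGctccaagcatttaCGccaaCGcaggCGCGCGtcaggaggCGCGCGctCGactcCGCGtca
Grm5, chr7:94750752-94750951, plus strand: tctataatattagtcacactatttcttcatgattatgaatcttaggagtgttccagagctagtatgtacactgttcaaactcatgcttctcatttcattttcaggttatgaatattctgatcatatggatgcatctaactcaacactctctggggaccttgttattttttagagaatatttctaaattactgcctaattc
Grik3 had 34 CG dinucleotides in its 200 bases, Grin1 had 25 and Gria2 had 23. Grin2b and Syt1 had 6 each, and Grm5 had 0.

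At the promoters themselves, H3K27ac was called at 18, 20 and 16 of the 35 genes in aNPC, eA and lA. These are 51.4%, 57.1% and 45.7% of the members, against 50.6%, 53.2% and 48.2% of all coding genes. Gene length bears on this comparison, because 25 of the members have a body of at least 100 kb and only 2400 coding genes do. Of these long members 13, 15 and 11, or 52%, 60% and 44%, had promoter H3K27ac, where 67.1%, 72.2% and 62.9% of the long coding genes had it. The share of acetylated promoters was thus near that of all coding genes over the 35 members, and below that of long coding genes at the 25 long members. No share of promoter H3K27ac was computed for genes under 100 kb. H3K4me1 was called at the promoters of 31, 29 and 27 members, or 88.6%, 82.9% and 77.1%, where 55.4%, 53.6% and 52.7% of coding genes had it. Among long genes the shares were closer, 84%, 84% and 80% of the members against 78.2%, 76.8% and 75.6% of coding genes. Of the 10 members under 100 kb, 10, 8 and 7 had promoter H3K4me1, where 52.7%, 50.8% and 50% of coding genes of that size had it. Promoter H3K4me1 with no promoter H3K27ac was found at 13, 10 and 12 members, which are 37.1%, 28.6% and 34.3% of them, against 11.8%, 9.85% and 13.5% of coding genes. Among long genes it was found at 8, 6 and 9 of the 25 members, or 32%, 24% and 36%, against 18.3%, 14% and 22.3%. The 50 other synaptic genes listed for comparison, among them Gria3, Grm2 and Syn1, had promoter H3K4me1 without H3K27ac at 19, 15 and 22 genes. Promoter H3K27ac was present at 27, 31 and 23 of these 50 genes and promoter H3K4me1 at 46, 43 and 43.

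**Figure D1:**
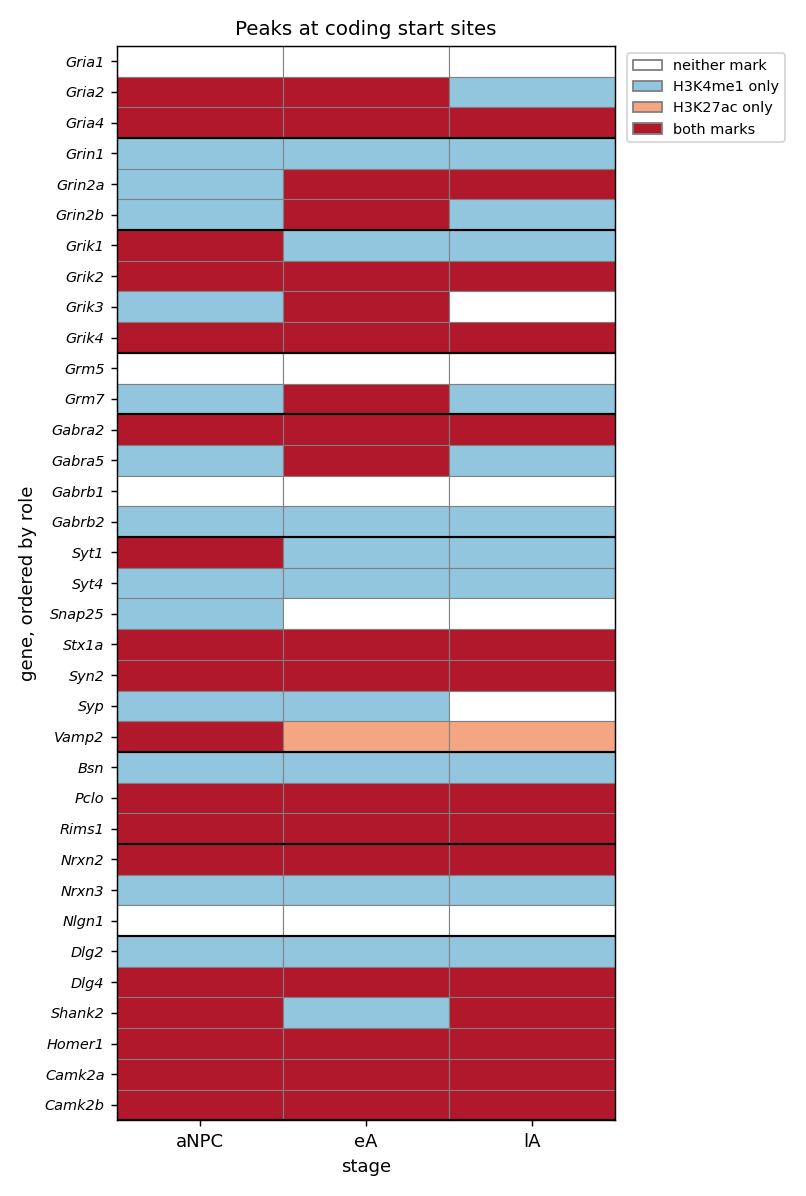
State of the promoters of the 35 synaptic genes (rows, grouped by role) in aNPC, eA and lA (columns). Colours give the marks with a peak within 1 kb before or 100 bp after a coding start site: 14 genes show H3K27ac in all 3 columns, 12 in none and 9 in 1 or 2.

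Of the 35 genes, 14 had a promoter H3K27ac peak at all 3 stages, 40% against 45.2% of coding genes. Of the 25 long members 9 did, 36% against 59.2% of long coding genes. The 14 genes were Gria4, Grik2, Grik4, Gabra2, Stx1a, Syn2, Vamp2, Nrxn2, Dlg4, Homer1, Camk2a, Camk2b, Pclo and Rims1, and 13 of them also had promoter H3K4me1 throughout, Vamp2 being the exception with H3K4me1 in aNPC alone. That Vamp2 H3K4me1 peak had a −log10 q of 3.44, above 5.51% of its list. The share of coding genes with both marks throughout was not counted. Vamp2 encodes synaptobrevin, the vesicle SNARE protein, and its promoter peak had a −log10 q of 183 in aNPC, 142 in eA and 68 in lA. Within each list this stood above 97.9%, 98% and 98.1% of all peaks. Ranks so near the top have little room to differ, and −log10 q itself cannot be compared between lists. Homer1, a scaffold that links receptors to calcium stores, had promoter peaks of up to 68.1, 98 and 37.1, above 88.6%, 94.8% and 92.1% of each list. The promoter peak of Gabra2, a GABA-A receptor alpha subunit, ranked high only within the aNPC list, where it stood above 89.2% of peaks, and in eA and lA it stood above 14.5% and 23.5%. At Rims1, which organises release sites, the peak nearest the start stood above 73.5%, 78.9% and 4.61% of the lists. With a stricter cutoff of −log10 q of at least 5, the promoter calls of Gabra2 in eA and of Stx1a and Rims1 in lA were not made.

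At 9 members, promoter H3K27ac was called at 1 or 2 of the 3 stages, which is 25.7% of the members, against 10.6% of all coding genes and 16.1% of the long coding genes. All 9 belong to the 25 long members, of which they are 36%. Grin2b, Grik3, Grm7 and Gabra5 had it in eA only, Grin2a in eA and lA, Grik1 and Syt1 in aNPC only, Gria2 in aNPC and eA, and Shank2 in aNPC and lA. The eA list thus held promoter peaks for 5 receptor genes that had none in aNPC, from the NMDA, kainate, metabotropic and GABA-A classes. How many coding genes had such a difference was not counted, and the eA list is the longer of the 2. All 5 carried promoter H3K4me1 in aNPC, as did 31 of the 35 members.

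Most of these peaks were weak for their list. Grik3, a kainate receptor subunit, had a 144 bp peak with a −log10 q of 2.86, above only 2.81% of the eA list. Grm7, a presynaptic metabotropic receptor, had a 163 bp peak of 4.35, above 14.5%. Grin2b, the NMDA receptor subunit typical of young neurons, had a 167 bp peak of 5, above 21.1%. Gabra5 differed from these, with a 717 bp peak of 18.1 whose summit lay 457 bp downstream of the start, above 67.7% of the list. Grin2a, the NMDA receptor subunit that becomes prominent later in neurons, had peaks of 16.4 in eA and 12.2 in lA, above 65.4% and 65.3% of the lists, and 1066 and 1239 bp wide. The aNPC-only peaks of Grik1 and Syt1, the latter encoding the calcium sensor for release, were 178 and 185 bp wide and stood above 6.42% and 17.9% of the aNPC list. In eA an H3K27ac peak overlapped the H3K4me1 peak at the Syt1 start, but lay outside the promoter as taken here. Gria2 encodes the AMPA receptor subunit that limits calcium entry, and its promoter peak stood above 72.5% of the list in aNPC and 58.9% in eA and was not called in lA. Shank2, a postsynaptic scaffold, had peaks of 6.03 in aNPC and up to 7.46 in lA at different start sites. With −log10 q of at least 5, 8 members had promoter H3K27ac at 1 or 2 stages and 16 at none, where 10.6% and 45.4% of all coding genes did. Of the 25 long members these were 7 and 11, against 16.7% and 26.3% of long coding genes. The calls of Grik3, Grm7, Grik1 and Syt1 were lost at that cutoff, while those of Grin2a, Grin2b, Gabra5, Gria2 and Shank2 remained and Gabra2, Stx1a and Rims1 joined them.

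The remaining 12 members had no promoter H3K27ac peak at any stage, 34.3% of them against 44.2% of coding genes. Among long genes the order was the other way, with 7 of 25 members, or 28%, against 24.8%. Of the 12, 6 carried promoter H3K4me1 at every stage, namely Grin1, Gabrb2, Syt4, Nrxn3, Dlg2 and Bsn. In eA an H3K27ac peak overlapped that of Gabrb2 and that of Bsn, but lay outside the promoter as taken here. With promoters of 1 kb on each side of the starts, 18, 23 and 16 members had promoter H3K27ac in aNPC, eA and lA. Grin1 encodes the obligatory NMDA receptor subunit and had H3K4me1 peaks of 1225, 1150 and 971 bp over its start, with summits 54, 66 and 68 bp upstream. The peak stood above 92.2%, 98.8% and 81.4% of the H3K4me1 lists, with no H3K27ac peak over it. Snap25, a SNARE protein of the presynaptic membrane, had promoter H3K4me1 in aNPC only, and Syp, which encodes the vesicle protein synaptophysin, in aNPC and eA. The Snap25 promoter peak was weak, 227 bp wide with a −log10 q of 3.65, above 6.32% of its list. No peak of either mark was called at any promoter of Gria1, Grm5, Gabrb1 and Nlgn1. For these subsets of the 12, the share of coding genes was not counted.

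CpG content was compared between these classes without a test. The ratio of observed to expected CG dinucleotides in the 200 bases before the outermost coding start had a median of 0.732 over the 14 genes acetylated at all stages, 0.633 over the 9 acetylated at some, and 0.354 over the 12 acetylated at none. The median over 22354 coding promoters was 0.523. The ranges overlapped widely, from 0.153 to 1.29 in the first class and from 0 to 1.3 in the last, which held the CpG-rich promoters of Grin1 at 1.3 and Bsn at 1.12. With the most CpG-rich start of each gene in place of the outermost, the medians were 0.866, 0.667 and 0.518.

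The motif bound by REST was then searched in the windows, with up to 3 mismatches among its 20 letters and on both strands. A match within 1 kb of a coding start was present in 111 of 22359 coding genes, or 0.496%, and in 2 members, Grin1 and Syp. In all, 17 matches fell in the windows of 12 members, where 4% of all coding genes had a match in the window. Of the 25 long members 9 had one, against 11.7% of long coding genes. Per Mb of window there were 1.26 matches at the members, 0.697 at all coding genes and 0.558 at long ones. They are shown for the 2 starts, for the closest match of all in Nrxn2, and for those at Syt1 and Grik3 that lay under a peak. Each is read along the strand of the motif, and capitals mark the letters that differ from it.
Grin1, chr2:25174534-25174553, plus strand: ggTgctgtccGAggtgctga
Syp, chrX:7215864-7215883, minus strand: ggcTctgtccaCggtgctgG
Nrxn2, chr19:6502786-6502805, plus strand: ggcgctgtccatggtgAtga
Syt1, chr10:108019473-108019492, plus strand: gCagctgtccatggtgAtgG
Grik3, chr4:125267939-125267958, minus strand: ggagctCtccGAggtgctga
The Grin1 match lay in an exon, with its far end 81 bp downstream of the nearest coding start, which is not the outermost one shown above, and under the H3K4me1 peak of every stage, with no H3K27ac. The Syp match lay 16 bp from a start in an exon and under no peak. The Nrxn2 match had a single mismatch, lay 4951 bp from the nearest start and was under no peak. At Syt1 the match was under an H3K27ac peak in lA, and at Grik3 under an H3K4me1 peak in lA. A match at Camk2a, not printed here, had 2 mismatches and lay under an H3K27ac peak in aNPC and under H3K4me1 peaks in aNPC and eA, the only match with both marks. Of the 17 matches, 13 were under no peak of either mark at any stage. A match is a likeness of letters and does not show that REST was bound.

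Across the whole windows, the members held 315, 334 and 365 H3K27ac peaks in aNPC, eA and lA. The count per gene started at 0 at every stage and reached 43, 23 and 27, with medians of 7, 9 and 11. These totals grew in step with the lists: the members held 0.397% of all H3K27ac peaks in aNPC (95% Wilson interval 0.355 to 0.443), 0.4% in eA (0.36 to 0.446) and 0.394% in lA (0.355 to 0.436). When each list was cut to the length of the shortest, the totals were 315, 312 and 300. At least 1 H3K27ac peak was found in the windows of 31, 33 and 33 members, or 88.6%, 94.3% and 94.3%. All coding genes reached 69.5%, 71.7% and 70.5%, but those of at least 100 kb reached 90.4%, 92.2% and 91.3%, beside 24, 25 and 24 of the 25 long members. Per 100 kb of window, the members held 2.34, 2.49 and 2.72 H3K27ac peaks against 4.77, 5.43 and 5.49 for all coding genes, a ratio of 0.491, 0.458 and 0.495. Such sums are led by the longest genes. Gene by gene the median was 2.15, 3.3 and 3.27 per 100 kb at the members and 3.88, 4.63 and 4.53 at all coding genes, a smaller gap in eA and lA. At long genes the medians were 1.64, 2.42 and 2.48 against 3.61, 3.96 and 4.39. The windows of long genes are mostly intron, and 81.3%, 82.3% and 83.3% of the members' H3K27ac summits were intronic. In the peaks' strength, 6.35%, 2.99% and 4.11% of the members' H3K27ac peaks lay in the top 10% of their list.

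**Figure D2:**
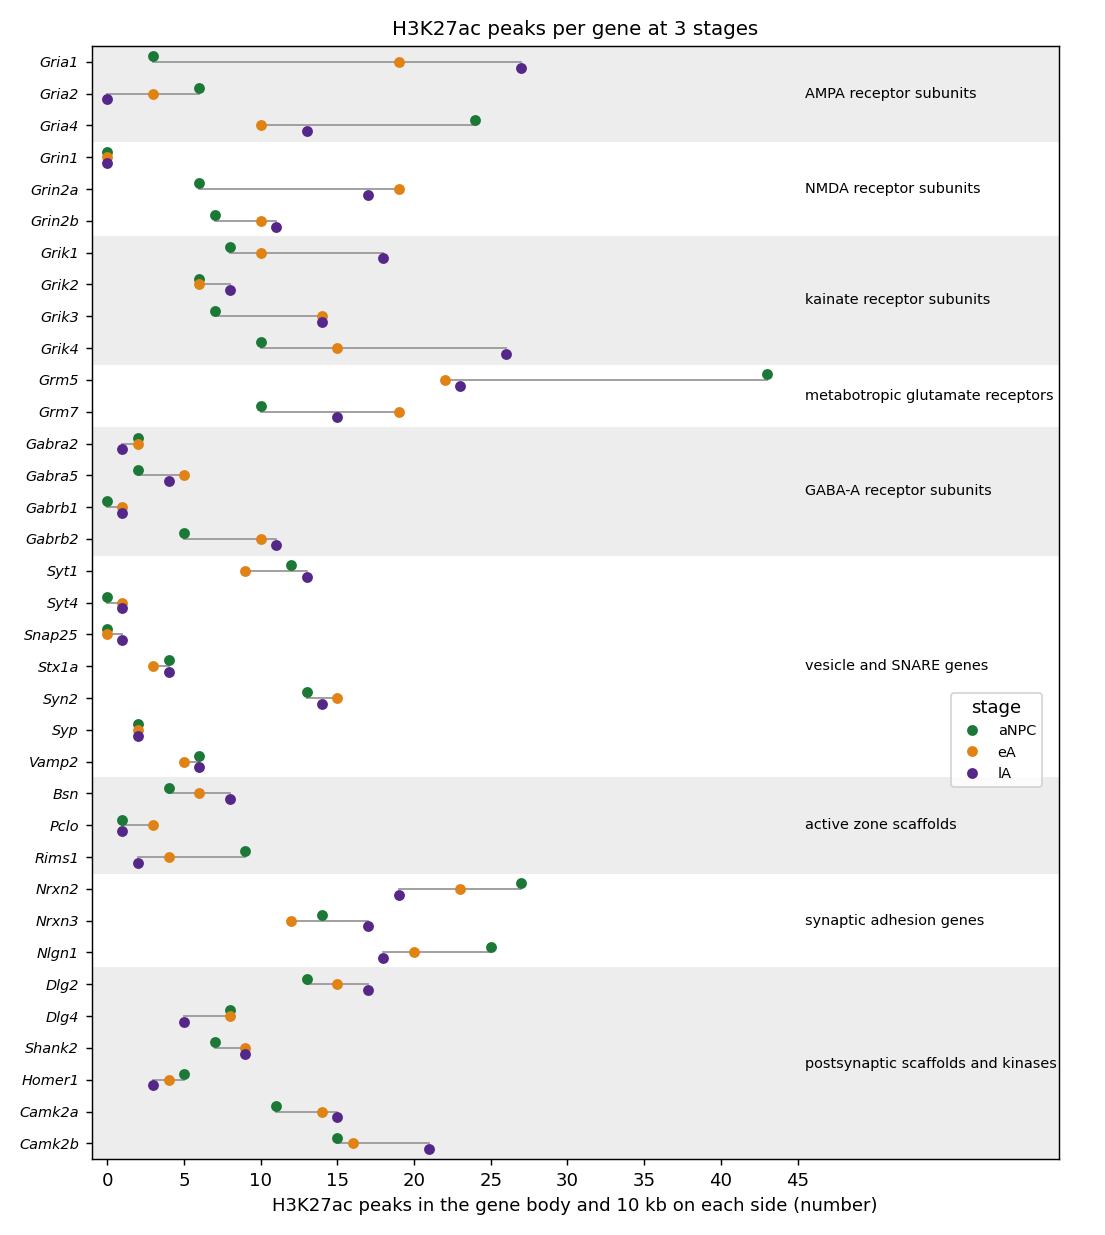
Number of H3K27ac peaks in the window of each synaptic gene (rows, grouped by role, grey bands separating the groups) in aNPC, eA and lA (coloured points joined by a line). Gria1 ran from 3 to 27, Grm5 from 43 down to 22, and Grin1 stayed at 0.

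Between aNPC and lA, 21 members had more H3K27ac peaks and 9 had fewer. Those shares of 60% and 25.7% compare with 34% and 22% of all coding genes. Of the 25 long members 16 had more and 8 fewer, or 64% and 32%, against 52% and 33.8% of long coding genes. With lists of equal length, 17 members had more and 12 fewer, against 28.8% and 25.8% of all coding genes. The share of long coding genes was not computed at that length. The direction was divided among the members, also within receptor families.

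Of the AMPA receptor genes, Gria1 had more H3K27ac peaks in lA than in aNPC, and Gria2 and Gria4 had fewer. Gria1 had 3, 19 and 27 H3K27ac peaks in the order aNPC, eA and lA, which is kept below, and 26, 42 and 63 H3K4me1 peaks. With lists of equal length the H3K27ac counts were 3, 19 and 23. All were away from the promoter, the strongest being 231 bp wide and above 28.4% of its list in aNPC, then above 90.2% in eA at chr11:56916831-56917348 and above 91% in lA, both in introns. Gria2 had 6, 3 and 0 H3K27ac peaks, while its H3K4me1 peaks numbered 7, 7 and 13 and all 13 in lA stood without H3K27ac. Gria4 had 24, 10 and 13 H3K27ac peaks, and 24, 10 and 7 with lists of equal length.

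The NMDA receptor genes had no member with fewer H3K27ac peaks in lA than in aNPC. Grin1 had no H3K27ac peak in its window at any stage, and 6, 4 and 5 H3K4me1 peaks. Its window also holds the start sites of Lrrc26 and Tmem210. Grin2a had 6, 19 and 17 H3K27ac peaks and 21, 37 and 58 H3K4me1 peaks, of which 18, 28 and 45 lacked H3K27ac. With lists of equal length these were 6, 18 and 16 H3K27ac peaks and 21, 33 and 38 H3K4me1 peaks. Grin2b had 7, 10 and 11 H3K27ac peaks, and its H3K4me1 peaks without H3K27ac numbered 23, 33 and 46. Its strongest H3K27ac peak of eA and of lA lay at the same intronic place, chr6:135960491-135961235 in eA. In aNPC that place carried the gene's strongest H3K4me1 peak and H3K27ac as well.

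All kainate receptor genes had more H3K27ac peaks in lA than in aNPC. Grik1 had 8, 10 and 18, Grik3 had 7, 14 and 14, Grik4 had 10, 15 and 26, and Grik2 had 6, 6 and 8. With lists of equal length each still had more in lA than in aNPC, at 8, 9 and 13 for Grik1, 7, 13 and 11 for Grik3, 10, 15 and 19 for Grik4 and 6, 6 and 7 for Grik2. At Grik2, however, the aNPC promoter peak at chr10:49508216-49508935 was called as separate peaks in lA. Small differences in count can thus come from how a marked stretch was split into peaks. The strongest Grik3 peak of lA, intronic at chr4:125321347-125322355, stood above 98.8% of the lA list, the highest rank of any member's H3K27ac peak at that stage. The coding gene 9530085L02Rik starts inside the Grik4 window.

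The metabotropic receptor genes had opposite differences. Grm5, the main metabotropic receptor of young astrocytes, had 43, 22 and 23 H3K27ac peaks, and the aNPC count was the highest of any member at any stage. With lists of equal length the counts were 43, 19 and 17. Its strongest peak lay at one intronic place at every stage, chr7:95074892-95075628 in aNPC, above 95.3%, 88% and 95.1% of the lists. H3K4me1 peaks numbered 41, 39 and 55, and 41, 32 and 47 with lists of equal length, so they were fewer in eA and more in lA than in aNPC. Grm7 had 10, 19 and 15 H3K27ac peaks.

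The GABA-A receptor genes were sparsely marked as a group, though not each of them. Gabra2 had 2, 2 and 1 H3K27ac peaks, Gabra5 had 2, 5 and 4, Gabrb1 had 0, 1 and 1, and Gabrb2 had 5, 10 and 11. The Gabrb1 peak of eA was 144 bp wide and above 1.02% of its list. As a group they held 0.929, 1.86 and 1.76 H3K27ac peaks per 100 kb, beside 3.77, 3.66 and 4.57 for the AMPA receptor genes. Gabrb2 had 2.15, 4.29 and 4.72 per 100 kb and Gabra5 1.64, 4.09 and 3.27, beside medians of 3.61, 3.96 and 4.39 at long coding genes. Gabra2 and Gabrb1 lay below those medians at every stage. H3K4me1 peaks of the 4 genes together numbered 26, 38 and 60, and 26, 30 and 38 with lists of equal length. At that length the H3K27ac counts in eA were 1 at Gabra2 and 0 at Gabrb1.

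The vesicle and SNARE genes ranged widely, and as a group they held 4, 3.78 and 4.43 H3K27ac peaks per 100 kb. Snap25 had 0, 0 and 1 H3K27ac peaks, and Syt4, a synaptotagmin that does not trigger fast release, had 0, 1 and 1. Snap25 nonetheless carried an H3K4me1 peak in an intron, chr2:136579405-136580049 in lA, that stood above 95.7%, 98.4% and 98.8% of the lists with no H3K27ac over it. Syp had 2, 2 and 2 H3K27ac peaks, Stx1a 4, 3 and 4, Vamp2 6, 5 and 6, Syt1 12, 9 and 13, and Syn2, a synapsin that tethers vesicles, 13, 15 and 14. Neighbours share several of these windows, with Prickle3 starting in that of Syp, Per1 in that of Vamp2, Wbscr22 in that of Stx1a, and Timp4 and Gm17482 in that of Syn2. The strongest H3K27ac peak in the Syn2 window, chr6:115201302-115202290 in eA, covered the start of Timp4 at every stage, as did the strongest H3K4me1 peak of eA and lA. Timp4 encodes an inhibitor of metalloproteinases and lies within an intron of Syn2 on the opposite strand, so these peaks cannot be assigned to Syn2. Likewise the strongest H3K4me1 peak in the Vamp2 window lay at the start of Per1, a circadian clock gene. The strongest H3K4me1 peak of any member in aNPC lay beside the Timp4 start, and the 200 bases around its summit are shown on the plus strand with CG dinucleotides in capitals, because they hold only 1 of these.
Syn2, chr6:115203010-115203209, plus strand: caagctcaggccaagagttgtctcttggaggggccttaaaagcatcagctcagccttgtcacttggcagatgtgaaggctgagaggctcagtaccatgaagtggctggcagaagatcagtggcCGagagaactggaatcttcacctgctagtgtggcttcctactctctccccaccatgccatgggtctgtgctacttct
That peak stood above 99.8% of the aNPC list and overlapped H3K27ac.

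The active zone scaffolds had few H3K27ac peaks for their length, 1.23, 1.14 and 0.966 per 100 kb. Rims1 had 9, 4 and 2 and, with lists of equal length, 9, 4 and 1, while its H3K4me1 peaks numbered 21, 21 and 36. Of these 36, 34 had no H3K27ac. Pclo had 1, 3 and 1 H3K27ac peaks and Bsn 4, 6 and 8, the strongest of Bsn in eA and lA lying in its downstream flank near the start of Apeh.

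Of the adhesion genes, Nrxn2 had 27, 23 and 19 H3K27ac peaks and Nlgn1, a postsynaptic partner of neurexins, had 25, 20 and 18, which became 25, 18 and 12 with lists of equal length. The strongest H3K27ac peak of Nrxn2 in aNPC stood above 97.7% of the list, second among the members to that of Vamp2, and lay in an intron. It is shown here for the 176 bases around its summit that hold no exon, with CG dinucleotides in capitals, and contrasts with the CpG-rich starts above in having only 1.
Nrxn2, chr19:6446422-6446597, plus strand: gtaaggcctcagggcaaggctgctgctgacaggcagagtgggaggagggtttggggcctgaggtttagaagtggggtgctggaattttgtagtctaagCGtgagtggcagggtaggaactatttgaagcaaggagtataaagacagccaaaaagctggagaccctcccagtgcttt
Nrxn3 had 14, 12 and 17 H3K27ac peaks in a window of 1632 kb, and the start of Slc22a12 falls in the window of Nrxn2.

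The postsynaptic genes had modest differences. Camk2a and Camk2b, the kinase subunits that respond to calcium, had 11, 14 and 15 and 15, 16 and 21 H3K27ac peaks. Dlg2 had 13, 15 and 17, Shank2 7, 9 and 9, Homer1 5, 4 and 3, and Dlg4, which encodes the scaffold PSD-95, 8, 8 and 5. At Dlg4 a single lA peak, chr11:69841733-69843848, overlapped peaks that were called separately in eA. The window of Dlg4 also holds starts of Acadvl and Asgr1.

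To follow single places over time, overlapping H3K27ac peaks of the 3 lists were joined into sites. The windows held 586 sites, of 132992 in the genome. Of the members' sites, 102 were acetylated at all stages, 17.4% (95% Wilson interval 14.6 to 20.7), where the figure for all sites was 26%. All sites include every promoter of the genome, and no share was computed for long genes or for sites away from promoters. Sites of aNPC alone numbered 148, or 25.3% (21.9 to 28.9) against 21.5%, and those of lA alone 132, or 22.5% (19.3 to 26.1) against 19.3%. A further 89 were shared by eA and lA, 74 were found in eA alone, 31 in aNPC and eA, and 10 in aNPC and lA.

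**Figure D3:**
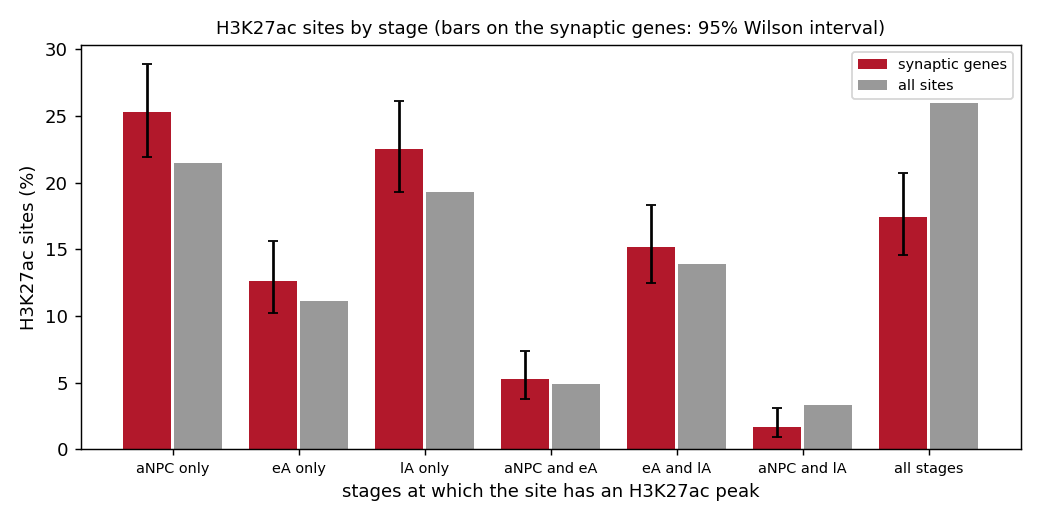
Share of H3K27ac sites (percent, vertical axis) by the stages at which they had a peak, for the 586 sites in the windows of the synaptic genes (red, with 95% Wilson intervals that cover counting error only) and for all 132992 sites (grey). Sites acetylated at all stages made up 17.4% of the members' sites and 26% of all sites.

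The patterns differed from gene to gene. Of 28 sites at Gria1, 2 were acetylated at all stages, none in aNPC alone, 13 in both eA and lA and 12 in lA alone. Of 56 sites at Grm5, 26 were acetylated in aNPC alone, 11 in lA alone and 8 throughout. Gria4 had 14 of 29 sites in aNPC alone, Nlgn1 14 of 40 and Dlg2 11 of 32. Grik4 had 13 of 34 sites in lA alone and Grik1 had 11 of 24. All 6 sites at Gria2 were acetylated in aNPC, 2 of them also in eA and none in lA.

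Of the 295 member sites that were not acetylated in aNPC but were later, 154 overlapped an H3K4me1 peak in aNPC. This is 52.2% (46.5 to 57.8), and the 59017 sites of this kind in the genome gave 50.3%, inside that interval. Sites acetylated in lA alone had H3K4me1 less often in aNPC, 31.1% (23.8 to 39.4), than those of eA alone at 66.2% (54.9 to 76) or of eA and lA at 71.9% (61.8 to 80.2). The whole lists gave 30.3%, 60.2% and 70.1%. In the other direction, 94 of the 179 sites acetylated in aNPC but not in lA had H3K4me1 in lA, 52.5% (45.2 to 59.7) against 55.5% of all such sites. In both directions the genome-wide share lay inside the members' interval.

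H3K4me1 was present in the windows of all 35 members at every stage, with 738, 924 and 1077 peaks in aNPC, eA and lA. These were 0.478% (0.445 to 0.514), 0.498% (0.467 to 0.531) and 0.517% (0.487 to 0.549) of their lists, and with lists of equal length the totals were 738, 785 and 783. Per 100 kb the members held 5.49, 6.88 and 8.01 peaks against 9.1, 10.6 and 11.6 for all coding genes. The median gene had 7.42, 8.33 and 10.4 against 8.9, 10.4 and 11, and the median long gene had 4.84 against 8.1 in aNPC and 9.43 against 11.5 in lA. More H3K4me1 peaks in lA than in aNPC were found at 28 members and fewer at 6, or 80% and 17.1%, against 46.4% and 20.1% of coding genes. Of the 25 long members 24 had more and 1 had fewer, or 96% and 4%, against 77.6% and 14.4% of long coding genes. With lists of equal length 20 members had more and 12 fewer, where 26.5% and 37.4% of all coding genes did. For long coding genes this was not computed. The lA counts of 8 members were over 1.5 times those with lists of equal length, namely Grin2a, Grik2, Grik3, Gabrb1, Gabrb2, Nlgn1, Homer1 and Bsn, and at Nlgn1 60, 69 and 65 peaks became 60, 59 and 41. How many coding genes moved as far was not counted. The 6 members with fewer H3K4me1 peaks in lA than in aNPC were Grin1, Stx1a, Syp, Vamp2, Nrxn2 and Camk2b, and only Nrxn2 among them is at least 100 kb long. Among the 50 other synaptic genes, 26 had more H3K4me1 peaks in lA and 14 fewer, and 18 had more H3K27ac peaks and 14 fewer.

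Most of this H3K4me1 stood alone. Peaks with no overlapping H3K27ac peak of the same stage numbered 506, 673 and 804, which is 68.6% (95% Wilson interval 65.1 to 71.8) in aNPC, 72.8% (69.9 to 75.6) in eA and 74.7% (72 to 77.2) in lA. The whole lists gave 61.1%, 64% and 66.3% and the windows of all coding genes 57.6%, 58.6% and 63.8%, each below the interval of the members at that stage. The 50 other synaptic genes gave 61.6%, 61% and 68.7%. More such peaks in lA than in aNPC were found at 27 members, 77.1%, against 47% of coding genes, and at 23 of the 25 long members, 92%, against 77.2% of long coding genes. Most H3K4me1 peaks were without H3K27ac at every stage at 21 of the 35 members, where 24.9% of coding genes met this condition. At long genes it was 17 of 25 members, or 68%, against 59.4%.

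**Figure D4:**
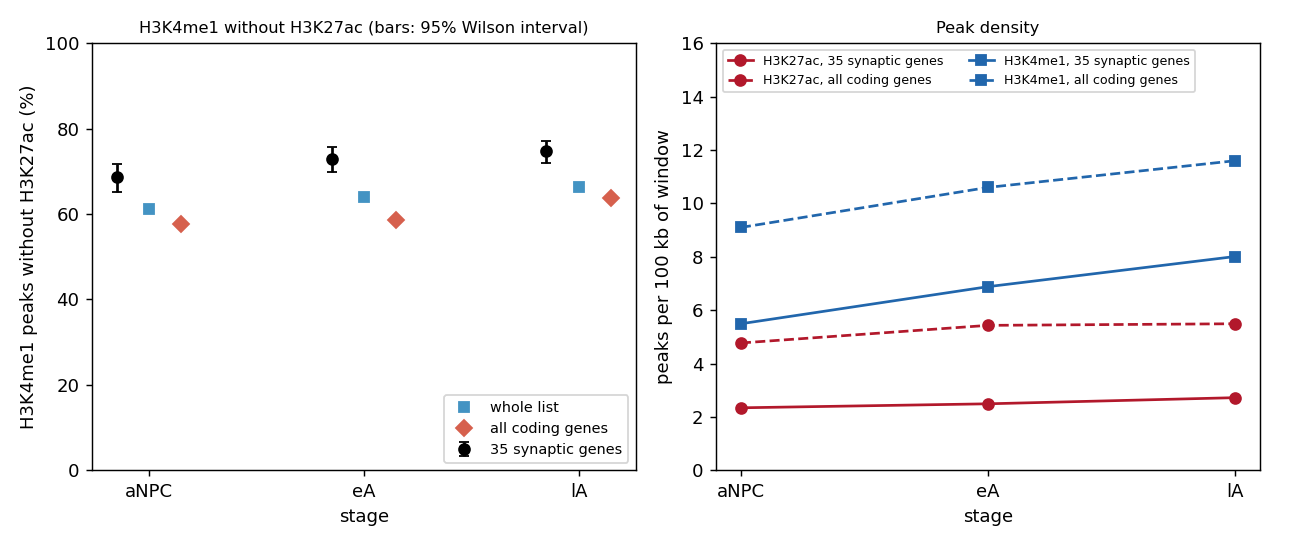
Left, percentage of H3K4me1 peaks with no overlapping H3K27ac peak in the windows of the 35 synaptic genes (black, with 95% Wilson intervals), in the whole list (blue) and in the windows of all coding genes (red), by stage. Right, peaks per 100 kb of window for both marks, with solid lines for the synaptic genes and dashed lines for all coding genes: the members lie lower for both marks at all 3 stages.

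By the highest count at any stage, the genes with most H3K4me1 peaks without H3K27ac were Nrxn3, Dlg2, Nlgn1, Grik4 and Grin2b, all of at least 100 kb. Shank2, with 31, 44 and 43, had more than Grin2b in aNPC and eA and more than Grik4 in lA. Nrxn3, a presynaptic adhesion gene, had 48, 64 and 79 such peaks among 57, 76 and 91 in all. Dlg2, which encodes the scaffold PSD-93, had 52, 64 and 66, Nlgn1 38, 55 and 49, and Grik4 34, 51 and 31. At Grik4 the H3K4me1 peaks that did overlap H3K27ac numbered more in lA than before, as the plot of H3K4me1 peaks by gene shows. At the other end, Dlg4 had 0, 0 and 4 and Syp 2, 2 and 0.

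**Figure D5:**
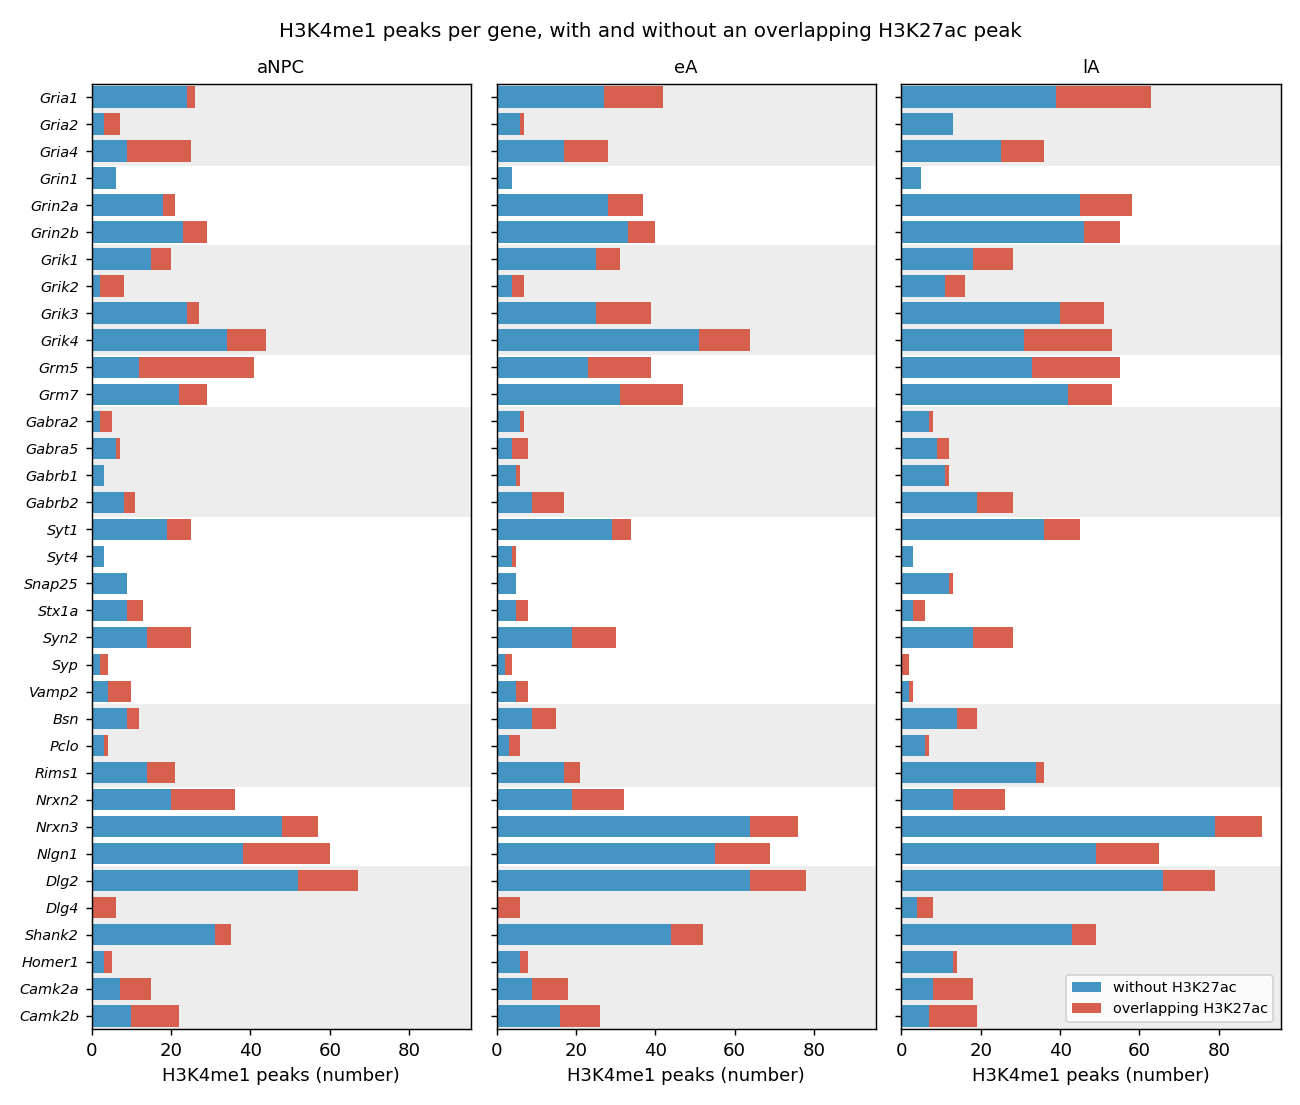
Number of H3K4me1 peaks in the window of each synaptic gene (rows, grouped by role) in aNPC, eA and lA, split into those without an H3K27ac peak (blue) and those overlapping one (red). Nrxn3 and Dlg2 have the longest blue bars at lA, with 79 and 66 peaks.

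Joined over the stages, the H3K4me1 peaks made 1313 sites in the windows, of which 880 never overlapped an H3K27ac peak of any stage. This is 67% (64.4 to 69.5), against 59.2% of the 251555 sites of the lists. Of the 477 sites that had H3K4me1 at all 3 stages, 191 were never acetylated, a share that was not computed over the whole lists. Nrxn3 held 27 of these lasting unacetylated sites, Dlg2 16, Shank2 15, and Grik3 and Nlgn1 13 each. All 7 H3K4me1 sites at Grin1, 14 of 15 at Snap25 and 12 of 13 at Gabrb1 were never acetylated, and 1 of 6 at Dlg4, 3 of 11 at Vamp2 and 7 of 22 at Camk2b. Of all 1313 sites, 364 had H3K4me1 in lA alone, 112 in eA alone and 91 in aNPC alone. The lA list is the longest, and these counts were not made with lists of equal length or over all sites of the lists.

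Short motif cores were counted within 100 bases of the summits, on both strands, to describe the sequence of these peaks. In the 200 bases before the start of all coding genes, TTGGCA was found at 9.01%, CAGCTG at 9.56%, TGACTCA at 3.04% and TGTGGTT at 3.33%. TTGGCA, a core of the NFI motif, was found at 9.52% (6.75 to 13.3), 14.1% (10.7 to 18.2) and 12.1% (9.1 to 15.8) of the members' H3K27ac peaks in aNPC, eA and lA, where the lists gave 11.2%, 11.5% and 11%. CAGCTG, an E-box used by proneural factors, was found at 16.8% (13.1 to 21.4), 10.5% (7.63 to 14.2) and 11.8% (8.86 to 15.5), where the lists gave 12.2%, 12.7% and 12.3%. The list value for aNPC lay below the members' interval, at 53 of 315 peaks. TGACTCA, the AP-1 core, was at 4.76%, 4.79% and 2.47% of the members' peaks and 3.62%, 3.59% and 3.49% of the lists, and TGTGGTT, a RUNX core, at 5.4%, 3.89% and 3.84% against 3.92%, 3.74% and 3.93%, with the list value inside the members' interval each time. At H3K4me1 peaks, TTGGCA was found at 18.6%, 18% and 18.8% of the members' peaks and 17.3%, 16.1% and 16.2% of the lists, the lA list value lying just below the members' interval of 16.5 to 21.2. CAGCTG was found at 17.6%, 14.3% and 14.6% of the members' H3K4me1 peaks and 16.9%, 15.4% and 13.8% of the lists. TGACTCA was found at 5.56%, 4.98% and 4.92% against 4.79%, 5.16% and 5.26%, and TGTGGTT at 4.2%, 4.65% and 3.71% against 4.27%, 4.31% and 4.49%. Of these 24 comparisons with a list, the list value lay outside the members' interval in 2, each named above, and no allowance was made for their number.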

How the data were processed

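ChIP-seq for H3K27ac and H3K4me1 was analysed in aNPC, eA and lA. The authors aligned reads uniquely to mm9 with Bowtie, merged the 2 replicates with SAMtools 0.1.19 and called peaks with MACS2 at default settings without input. The deposited lists give peak positions, summits and −log10 q values, as the authors' peak caller wrote them. The −log10 q was used only to rank or filter within a list, since depth is unknown. Of 51 samples, 8 RNA-seq libraries carry conflicting labels and stayed unassigned. RNA-seq and knockdown samples were not analysed here, and some genes of the comparison list are not reported here by name.

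Peaks on the 19 autosomes, X and Y were counted by overlap of at least 1 bp with each gene body and 10 kb on either side. Genes came from GENCODE M1 on mm9, and Map2 was found under an older name through RefSeq synonyms (GRCm38.p6, names only). Start sites were those of coding transcripts. Shares carry 95% Wilson intervals for counting error over peaks, which are not replicates. Sites are peaks of 3 lists joined where they overlap. The members and lists were chosen with earlier results of these data known. Genes were named with values if promoter H3K27ac changed, if a stage had no H3K27ac in the window, or if they were among the 5 with most H3K27ac peaks, most H3K4me1 peaks without H3K27ac, or largest differences between stages. Sequences were read from mm9 for promoters whose state changed and for the strongest peaks, where no annotated exon lay in the way. For contrast, 2 promoters without H3K27ac were added. The REST motif was the consensus named in the study's motif table. Overlap counting and motif matching were tested on simulated data. The software was Python 3.11.15, NumPy 2.4.6, pysam 0.24.0, samtools 1.23.1 and matplotlib 3.10.9.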

Additional observations from a re-analysis of the deposited data

How the results depend on the processing

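Across the 8 alternatives, 129 recomputed values stayed within 1.5 times the main count or inside the 95% interval of the main share or ratio. The other 18 moved, and every density ratio stayed below 1. With 50 kb on each side, the members' H3K27ac density relative to all coding genes was 0.573, 0.533 and 0.597 in aNPC, eA and lA, and that of H3K4me1 0.675, 0.733 and 0.787. Counting only peaks whose nearest coding start was the member's gave 0.583, 0.554 and 0.569 for H3K27ac and 0.697, 0.752 and 0.806 for H3K4me1. With −log10 q of at least 5 the H3K27ac ratio was 0.422 in aNPC and 0.406 in eA. Without Dlg2 the H3K4me1 ratio in eA was 0.693. Counting by summit, so that an H3K27ac summit had to lie inside the H3K4me1 peak, gave shares of H3K4me1 without H3K27ac of 75.2%, 76.7% and 79%. A summit is narrower than a peak, and for the other shifts the cause was not tested. The totals per stage depend on list length: cut to equal length, H3K27ac went from 315 in aNPC to 300 in lA, in place of 365. No paired analysis was possible because each mark and stage has 1 merged list. Depth is unknown, so a missing peak is not shown to be a missing mark.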

Other observations

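Among the 50 other synaptic genes, a few were chosen after their values were seen because they had many H3K27ac peaks or large differences. Syn3, a synapsin, had 32, 43 and 65 H3K27ac peaks in aNPC, eA and lA, more in lA than any of the 35 members. Gria3, an AMPA receptor subunit gene, had 17, 3 and 5. Camk2d, which encodes a calcium-dependent kinase subunit found in many tissues, had 11, 16 and 25. No test between stages was possible for these genes either, since each stage has 1 list, and their counts were not recomputed with lists of equal length. Other genes that start inside their windows were not listed, so these peaks cannot be assigned to the named genes.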
